A study of Mus musculus with 6 samples.

Results

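Expressed long noncoding RNA genes are described here in mouse macrophages cultured from bone marrow, with and without the recombinant chemokine CCL3. Members were genes whose deposited type was lncRNA, lincRNA, antisense, sense_intronic, sense_overlapping, bidirectional_promoter_lncRNA or processed_transcript, and whose mean over the 6 libraries was at least 2 FPKM (fragments divided by gene length and a library-wide scale). They numbered 86 of the 9677 genes of these 7 types and of the 54532 genes in the table. Members were thus chosen on their measured level. The groups were 3 control and 3 CCL3 libraries from C57BL/6J mice, an inbred laboratory strain without any stated mutation. After 7 days of culture, CCL3 was added for 3 days. On another reading of the design text CCL3 was there from the start of the culture. Neither the age of the mice nor what control cells received during those 3 days is stated in the labels used here. Whether each library had its own animal or culture is also unstated, so p-values reflect only the spread among these 6 libraries, which may be technical.

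Long noncoding RNAs are transcripts longer than small RNAs and with no known protein product. Some act in the nucleus as scaffolds, some are carriers of small RNAs that are cut from their introns, and many lie antisense to or head to head with a protein-coding gene. In macrophages, individual long noncoding RNAs are known to tune cytokine genes and myeloid differentiation, and a few loci once filed as noncoding encode small proteins.

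Recovered fragments came to between 17399194 and 18609737 per library. The median member had 97.5 to 150.5 fragments in a library, against 381 to 595 for the median tested gene, 18 members had under 20 fragments in at least 1 library, and 51 had at least 50 in every library. Control libraries detected 16394 to 16802 genes above 0 and CCL3 libraries 15035 to 15451. On the first principal component, which held 65.6% of the variance, control replicate 3 stood apart (-16.3 against -33.3 and -33.2). So did CCL3 replicate 3 (40.5 against 20.9 and 21.4). Control replicate 3 was the lowest control library for 38 of the 86 members. All 10 macrophage markers were above the test filter, with summed levels of 16824 to 28689 FPKM in control and 10823 to 15297 with CCL3. Of these markers Cd68 and Mrc1 were called higher, and Cd14 and Lyz2 lower.

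Summed levels of other cells' markers in control and CCL3 libraries were 15.2 to 17.8 and 44.4 to 53.2 FPKM for 5 osteoclast markers (Calcr at 0, 1 of 2 tested called higher), 19.2 to 37.4 and 38.3 to 51.4 for 5 megakaryocyte and platelet markers (3 of 4 tested higher), and 18.2 to 37.2 and 29.1 to 50.6 for 7 neutrophil markers (1 at 0, 1 of 3 tested higher). They were 2.14 to 4.20 and 5.25 to 8.24 for 5 fibroblast and stromal markers (2 of 2 tested higher), 2.62 to 2.96 and 4.45 to 6.31 for 8 dendritic cell markers (2 of 2 higher), 0.745 to 2.62 and 2.84 to 5.31 for 6 T and NK cell markers (3 at 0, 1 of 1 higher), and 0.965 to 1.25 and 1.72 to 4.39 for 6 erythroid markers (2 at 0, 1 of 1 higher). Overlapping sums of 2.15 to 2.59 and 1.86 to 3.37 were found for 4 B cell markers (0 of 1 called), 1.74 to 2.43 and 0.547 to 1.85 for 3 monocyte markers (0 tested), and 0 to 0.143 and 0.0384 to 0.226 for 4 mast cell and basophil markers (1 at 0, 0 tested). No marker in these lists was called lower. Their part in the results on long noncoding RNAs was not tested. In these bulk samples fewer cells of a type and less RNA per cell cannot be told apart.

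Most members were low. The median member stood at 4.09 FPKM, against 7.27 FPKM for tested protein-coding genes; 53 members lay under 5 FPKM, 18 reached 10, 12 reached 20 and 4 reached 50, and the range was 2.17 to 226 FPKM. By deposited type there were 30 lincRNA, 28 antisense, 19 processed_transcript, 7 bidirectional_promoter_lncRNA and 2 sense_intronic genes. They were short, with a median length of 1171 bases (269 to 9070) against 3786.5 bases over tested genes. In all, 84 lay on autosomes, 16 of them on chromosome 11, and 2 on X. Just above the level threshold were Gm31597 (2.17 FPKM), Snhg15 (2.18) and 2310040G24Rik (2.20), and just below it Gm38560 (1.98), Gm17112 (1.97) and Zeb2os (1.93). Xist and Tsix, 2 of the 4 RNAs listed for the X inactivation centre, were at 0 in every library. The others, Jpx and Ftx, had means of 0.0898 and 0.0527 FPKM over the 6 libraries.

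The label was checked against other annotation. All 86 genes are in GENCODE M21, 84 with the same coordinates, and none has a coding transcript there. RefSeq (GRCm38.p6), however, lists a protein for 12 of them, a pseudogene for 1, a noncoding RNA for 53 and no matching gene for 20. The 12 are Ifi30, 1810058I24Rik, Tmem134, Ndufb1-ps, Tmem250-ps, Cct6a, Ptpmt1, Spata5l1, Zswim6, Trerf1, Gm14461 and Gm38399, the last within Nav1. Gm10076, the pseudogene, is covered over 100% of its length by a copy of the ribosomal protein gene Rpl41 at 99.5% identity. Gm26917 ends just before a ribosomal RNA record on chromosome 17. For these 14 genes the name long noncoding RNA is therefore open to doubt, and results are given with and without them.

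Genes were compared in limma on log2(FPKM + 1) over the 9218 genes that averaged 1 FPKM or more, and a gene was called where its p, adjusted by the Benjamini-Hochberg method over all of them, was under 0.05. Of the 86 members 29 were called (33.7%), against 32.4% of all tested genes. There were 14 members higher with CCL3 (16.3%, against 18% of all tested genes) and 15 lower (17.4%, against 14.5%), shares near those of all genes. Calls with a fold of 2 or more on log2(FPKM + 1) numbered 3 higher (3.49%, against 5.45%) and 8 lower (9.30%, against 2.55%). Of these 8, 4 (Snhg15, Gm26532, Gm13012 and 2610507I01Rik) met the level rule only through control, so the choice of members fixed their direction, and nothing is read from the share of 9.30%. The median log2 fold change was -0.11 over members and 0.01 over all tested genes.

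Among the 57 members not called, fold changes ranged from -1.06 to 0.98 on the log2 scale, 22 of them within 0.25 of 0. The 3 CCL3 libraries lay wholly above the 3 control libraries for 20 members and wholly below for 26, together 53.5%, against 48.6% of all tested genes. Every one of the 29 called members was among these. Both group means reached 2 FPKM in 71 members, while 9 passed the level rule only through control and 6 only through CCL3. Of the 15 called lower, 5 were in only through their control mean (6330403L08Rik, 2610507I01Rik, Gm13012, Snhg15 and Gm26532), so they had to be lower with CCL3. The 71 members with both means at 2 FPKM or more counted 14 higher and 10 lower, 4 of the latter by at least 2-fold. None of the 14 called higher was in only through its CCL3 mean.

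Single libraries mattered for many calls. Leaving out control replicate 1 gave 7 higher and 11 lower, control replicate 2 gave 6 and 9, CCL3 replicate 2 gave 8 and 13, and CCL3 replicate 3 gave 8 and 10, while without control replicate 3 or CCL3 replicate 1 the counts were 10 and 17 or 15 and 13. Calls over all tested genes, 2990 with every library, numbered 1643, 1128, 2599, 1921, 3142 and 2708 in the same fits and order. The loss of calls was thus not particular to members. In each of these 6 fits 15 of the 29 calls were made: Gm26917, Tmem134, 1810058I24Rik, Gm16845, Ifi30 and 2410022M11Rik as higher, and 4930430E12Rik, Gm26532, Gm36738, Zfas1, 2410006H16Rik, Snhg15, Gm13012, AU022793 and Snhg20 as lower. The other 14 missed the threshold without at least 1 library. Tmem250-ps and Spata5l1 missed it without control replicate 2 only (limma adjusted p = 0.0669 and 0.0737). BC051226 missed it without 3 of the 6 libraries, control replicates 1 and 2 and CCL3 replicate 3 (limma adjusted p up to 0.0991). Ndufb1-ps, 6330403L08Rik, Zswim6 and 2610507I01Rik missed it without any 1 of 4 libraries, control replicates 1 and 2, CCL3 replicate 3 and, for the first pair, CCL3 replicate 2 or, for the last pair, CCL3 replicate 1 (limma adjusted p up to 0.0930, 0.102, 0.135 and 0.124). Gm10076, Snhg8, 1810021B22Rik, Gm30025, 2610035D17Rik, Gm15417 and 5031425E22Rik missed it without any 1 of 5 libraries (limma adjusted p up to 0.116, 0.105, 0.154, 0.144, 0.126, 0.189 and 0.167). The exception was CCL3 replicate 1 for these 7, save CCL3 replicate 3 for 2610035D17Rik and control replicate 3 for 5031425E22Rik. Each fold change kept its sign in these fits.

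**Figure D1:**
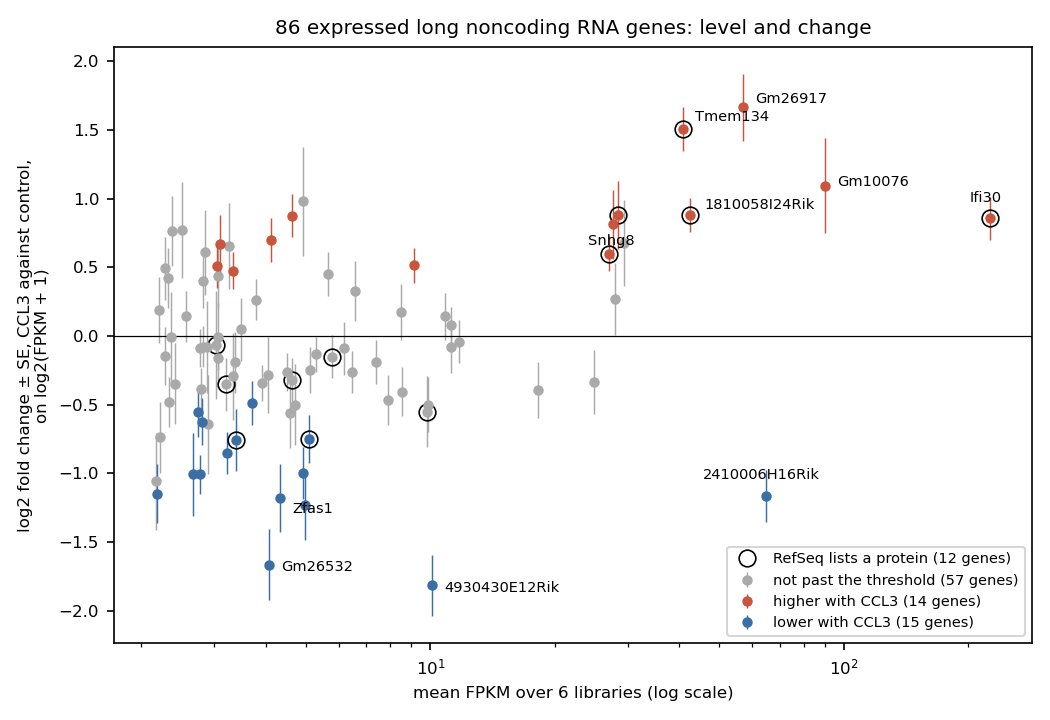
Log2 fold change with its standard error, CCL3 against control on log2(FPKM + 1), against the mean FPKM over 6 libraries on a log axis, for the 86 genes; red are the 14 called higher, blue the 15 called lower, grey the 57 not called, and rings mark the 12 genes for which RefSeq lists a protein. Of the 12 genes at 20 FPKM or more, 8 are red and 1, 2410006H16Rik, is blue. These counts stand against 18% called higher and 14.5% called lower over all tested genes. Every one of these red genes except Snhg8 is among the 14 genes whose name as long noncoding RNA is open to doubt. Gm10076 and Gm26917 are red and belong to that doubtful set but carry no ring.

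Scaling set the split between directions. After rescaling to TPM, 2 members were called higher and 43 lower, and with plain fragment totals 5 and 33, while the median of all tested genes moved from 0.01 to -0.48 and -0.28. Relative to that median the members' median was -0.12 on the deposited scale, -0.13 with TPM and -0.12 with plain totals, but -0.26 after correction for gene length, -0.19 after GC correction and -0.03 after quantile normalization. After correction for gene length 7 were higher and 23 lower, and after correction for GC content 8 and 19. Among calls over all tested genes, 55.4% were higher as deposited, 11.3% with TPM and 20.9% with plain totals. With length correction 52.3% were higher, and with GC correction 48.9%. Directions below are on the deposited scale, and all 15 lower calls but not all 14 higher calls were made again with TPM and with plain totals, where 2 and 5 of the higher ones remained.

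**Figure D2:**
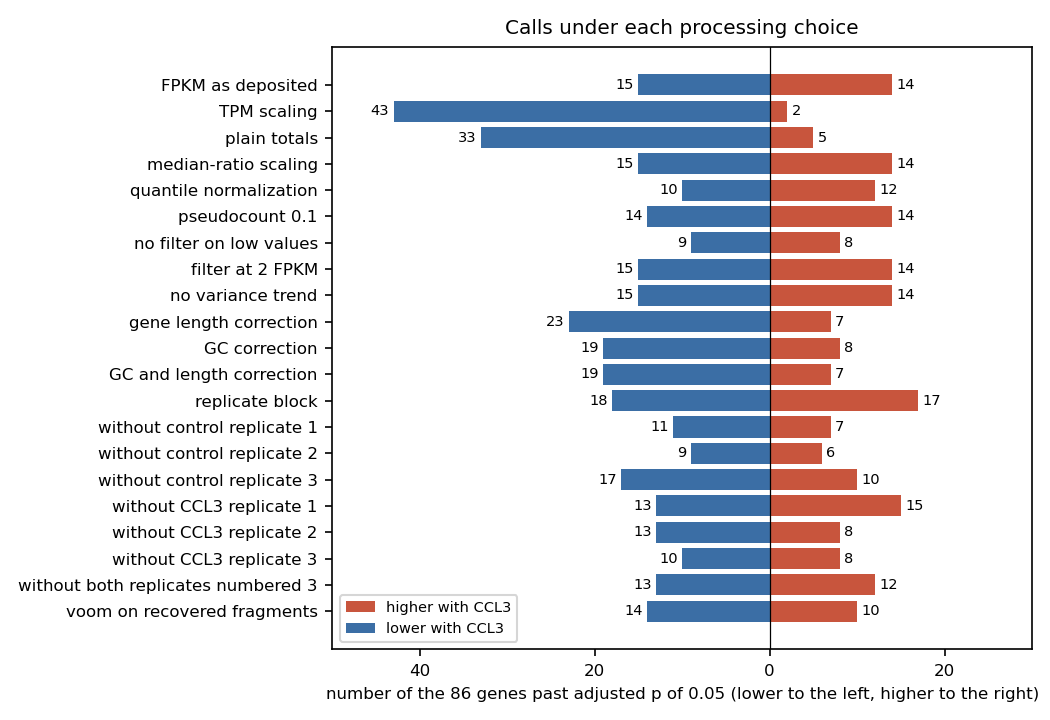
Number of the 86 genes called lower (blue, to the left) and higher (red, to the right) with CCL3 under each way of processing the data, fits with libraries left out included. Bars for TPM scaling (43 lower, 2 higher) and plain totals (33 and 5) lean furthest to the lower side, while FPKM as deposited gives 15 and 14.

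The largest rise was that of Gm26917 (ENSMUSG00000097971, a single-exon lincRNA of 3329 bases, mm10 chromosome 17, 39843013 to 39846341). Its levels were 23.8, 24.2 and 30.4 FPKM in control and 61.4, 80.8 and 122 FPKM with CCL3, with 1648 to 5873 fragments per library. All CCL3 libraries were above all control libraries, and the log2 fold change was 1.66 ± 0.24 SE (limma adjusted p = 0.00403). The ribosomal RNA record beside it, CT010467.1 (chromosome 17, 39846353 to 39848827), stood at 495, 554 and 619 FPKM in control and 863, 916 and 1296 FPKM with CCL3. It was called higher as well (log2 fold change 0.86 ± 0.19 SE, limma adjusted p = 0.0130). The share of fragments on ribosomal RNA genes was 0.158% ± 0.02002 in control and 0.225% ± 0.0376 with CCL3 (SD, n = 3 per group), non-overlapping, with an exact two-sided permutation p of 0.1, the smallest that 3 against 3 libraries allow. Whether the rise of Gm26917 belongs to a separate transcript or to ribosomal RNA was not tested. A list of 10 loci, drawn up by name as ribosomal RNA or repeat loci without a check of overlap, held 1 member, Gm26917. A search for an Rn45s record over its span found none. Whether the annotation used places such a record on a chromosome was not checked, so overlap with it is not settled. Gm42418 and AY036118 were listed at 0 in every library.

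Tmem134 (ENSMUSG00000024845, processed_transcript, chromosome 19, 4125934 to 4132307) encodes a membrane protein in RefSeq. Its libraries held 20.04, 18.7 and 23.1 FPKM in control and 52.9, 57.1 and 72.5 FPKM with CCL3. The groups were far apart, with a log2 fold change of 1.51 ± 0.16 SE (limma adjusted p = 0.00310).

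Ifi30, also called GILT, the lysosomal thiol reductase that unfolds antigens for MHC class II loading, had the highest level of all members (ENSMUSG00000031838, processed_transcript, chromosome 8, 70762774 to 70766663). It stood at 142, 149 and 192 FPKM in control and 272, 292 and 308 FPKM with CCL3, without overlap (log2 fold change 0.86 ± 0.16 SE, limma adjusted p = 0.00688). 1810058I24Rik (ENSMUSG00000073155, lincRNA, chromosome 6, 35252654 to 35263496) encodes a mitochondrial micropeptide that has been tied to the NLRP3 inflammasome in mouse macrophages. It rose from 31.0, 28.9 and 28.7 FPKM to 51.4, 58.3 and 56.0 FPKM, a log2 fold change of 0.88 ± 0.12 SE (limma adjusted p = 0.00360) with tight replicates. Over the same libraries Nlrp3 itself went the other way, from 17.4 ± 1.85 to 4.50 ± 0.991 FPKM (SD, n = 3 per group; log2 fold change -1.76 ± 0.17 SE, limma adjusted p = 0.00310).

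Gm10076, the Rpl41 copy (ENSMUSG00000060143, chromosome 14, 105681828 to 105682211), held 59.4, 54.1 and 47.4 FPKM in control and 62.6, 181 and 135 FPKM with CCL3. CCL3 replicate 1 was close to the control libraries, and the call stood at an adjusted p of 0.0430 (limma; log2 fold change 1.10 ± 0.34 SE). Rpl41 was called higher too, from 954 ± 126 to 1735 ± 207 FPKM (SD, n = 3 per group), and how reads that match both were split is not stated in the labels. Ndufb1-ps, whose RefSeq record is Ndufb1, a subunit of respiratory complex I, held 17.8, 18.3 and 21.2 FPKM in control and 24.8, 36.2 and 52.0 FPKM with CCL3, a log2 fold change of 0.88 ± 0.25 SE with a wide spread between CCL3 libraries. Tmem250-ps held 23.2, 20.4 and 20.2 FPKM in control and 33.0, 30.9 and 34.3 FPKM with CCL3, a log2 fold change of 0.60 ± 0.13 SE. The last was called in 14 of 20 other ways of processing the data, Ndufb1-ps in 12 and Gm10076 in 7, whereas Gm26917 and Tmem134 were called in all 20 and Ifi30 and 1810058I24Rik in 19. Among these 20 ways, median-ratio scaling equals the deposited scale, so it repeats every call and adds 1 to each such count. Here and below the 20 also include the fits without 1 library and without both replicates numbered 3. A call missed there is one missed with fewer libraries, not under another processing.

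Of the other genes with a RefSeq protein, Spata5l1, which encodes an ATPase that acts in ribosome assembly in human cells, and Zswim6, a zinc finger gene, were lower. Spata5l1 held 5.66, 7.06 and 7.08 FPKM in control and 4.31, 2.67 and 3.70 FPKM with CCL3, and Zswim6 held 5.01, 5.33 and 3.18 FPKM against 2.43, 2.88 and 1.48 FPKM. Their log2 fold changes were -0.75 ± 0.18 SE and -0.76 ± 0.23 SE (limma adjusted p = 0.0160 and 0.0366). The chaperonin gene Cct6a (log2 fold change -0.55), the mitochondrial phosphatase gene Ptpmt1 (-0.15), Trerf1 (-0.35), Gm14461 (-0.07) and Gm38399 (-0.32) were not called. Taking these 12 with Gm10076 and Gm26917, 7 of 14 were called higher and 2 lower, with a median log2 fold change of 0.27. The remaining 72 members counted 7 higher and 13 lower, with a median of -0.14. These 13 include all 5 lower calls that met the level rule only through control. Over all tested genes 18% were called higher and 14.5% lower. The difference between the 14 and the 72 was not tested, since they were set apart after the values had been seen.

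**Figure D3:**
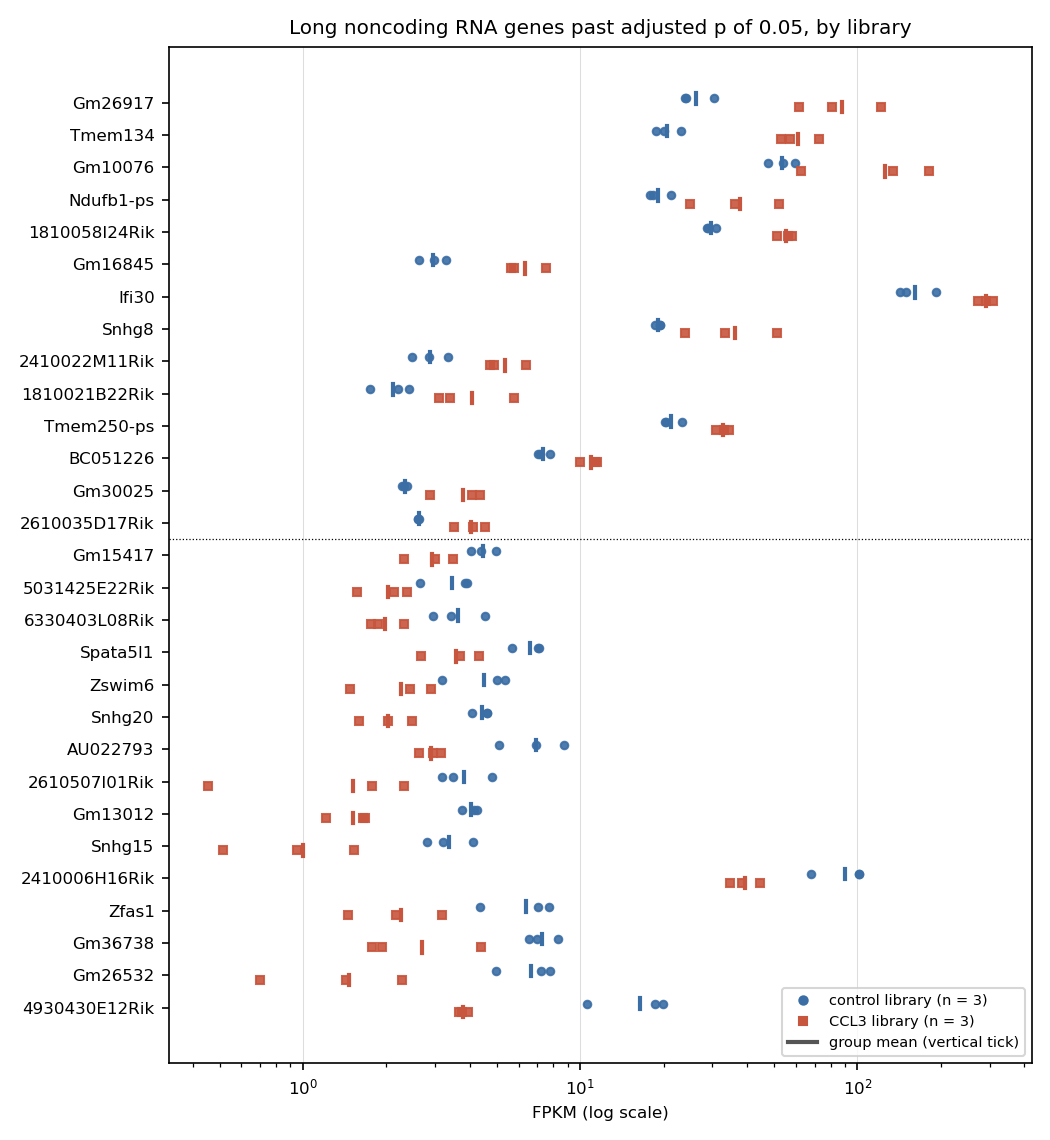
FPKM on a log axis in each control library (blue circles) and CCL3 library (red squares), with the group mean as a vertical tick, for the 14 genes called higher (above the dotted line) and the 15 called lower (below it). In each of the 29 genes the circles and squares do not overlap; for Gm10076 the lowest CCL3 library, at 62.6 FPKM, is close to the highest control library, at 59.4 FPKM.

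Among members without such doubts, 7 were called higher. Gm16845 (antisense, chromosome 9, 22071002 to 22086122) held 2.61, 3.27 and 2.98 FPKM in control and 5.76, 7.52 and 5.62 FPKM with CCL3. The groups were well apart, with a log2 fold change of 0.88 ± 0.15 SE (limma adjusted p = 0.00627). It overlaps exons of Ecsit, a signalling and mitochondrial assembly gene, and of Zfp653, neither of which was called (log2 fold changes 0.18 and 0.33). 2410022M11Rik (bidirectional_promoter_lncRNA, chromosome 14) held 2.85, 3.33 and 2.47 FPKM against 4.74, 6.40 and 4.87 FPKM, and all CCL3 libraries were above control. BC051226, which starts 97 bases from Daxx, a histone chaperone gene, held 7.03, 7.18 and 7.79 FPKM against 11.5, 9.99 and 11.3 FPKM, while Daxx was at 16.8 ± 1.73 and 17.8 ± 2.47 FPKM (SD, n = 3 per group; log2 fold change 0.07, not called). The other 4 were Snhg8, described with the snoRNA hosts, and 1810021B22Rik, Gm30025 and 2610035D17Rik, with log2 fold changes of 0.67, 0.51 and 0.48. These last 3 were called in 7, 7 and 9 of 20 other ways of processing the data, and the fold change of Gm30025 turned to -0.22 after GC correction and to -0.33 after GC and length correction.

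Of the 15 members called lower, 13 had no RefSeq protein. 4930430E12Rik (ENSMUSG00000085295, antisense, chromosome 4, 6352105 to 6357530) held 19.9, 18.7 and 10.6 FPKM in control and 3.75, 3.95 and 3.64 FPKM with CCL3. Control replicate 3 was the lowest control library but still far above all CCL3 libraries. The log2 fold change was -1.82 ± 0.22 SE (limma adjusted p = 0.00315), a 4.33-fold lower mean. Gm26532 (ENSMUSG00000097296, a single-exon lincRNA of 690 bases on chromosome 8, 84208920 to 84209609) held 4.95, 7.23 and 7.80 FPKM in control and 1.43, 2.28 and 0.699 FPKM with CCL3. Its lowest library held 7 fragments, and the log2 fold change was -1.66 ± 0.26 SE (limma adjusted p = 0.00454).

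Gm36738 (lincRNA, chromosome 15) held 8.30, 6.51 and 7.01 FPKM in control and 4.38, 1.77 and 1.92 FPKM with CCL3, with CCL3 replicate 1 between the other CCL3 libraries and control. AU022793 (lincRNA, chromosome 15) held 8.74, 6.94 and 5.10 FPKM against 3.13, 2.62 and 2.95 FPKM, and Gm13012 (antisense, chromosome 4) held 4.24, 3.74 and 4.12 FPKM against 1.64, 1.21 and 1.68 FPKM. Their log2 fold changes were -1.23 ± 0.26, -0.998 ± 0.19 and -1.01 ± 0.14 SE. In each of the 3 all CCL3 libraries were below control. 2610507I01Rik held 3.47, 4.82 and 3.17 FPKM against 1.77, 2.31 and 0.456 FPKM (log2 fold change -1.01 ± 0.30 SE). 6330403L08Rik, 5031425E22Rik and Gm15417 were called lower with log2 fold changes of -0.62, -0.55 and -0.49. Of the 15 lower calls, 8 were made in all 20 other ways of processing the data, of which median-ratio scaling could not differ: 4930430E12Rik, Gm26532, 2410006H16Rik, Zfas1, Snhg15, Snhg20, AU022793 and Gm13012. Among these 8, Gm26532, Snhg15 and Gm13012 met the level rule only through control, so their direction is no sign of stability. No role is known from the labels or annotation for 4930430E12Rik, Gm26532, Gm36738, AU022793 or Gm13012.

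SnoRNA host genes are spliced, and the small nucleolar RNAs that guide modification of ribosomal RNA are cut from their introns. The remaining exons form the long noncoding RNA. For Zfas1, Snhg1 and Snhg8 the annotated exons merge into 1 that fills the whole gene span (2929, 2969 and 853 bases). For Snhg20 and Gas5 the gene length, 2795 and 3760 bases, comes close to the span. Reads from introns and snoRNA stretches can therefore enter the levels of these hosts. In other mammalian cells several of these host RNAs are known to start with a run of pyrimidines, as ribosomal protein mRNAs do, a feature tied to growth signals. Starts are printed here because the hosts moved in different directions. Each is 20 bases before and 30 from the RefSeq start, read 5′ to 3′ on the transcribed strand, and capitals mark a C followed by at least 4 pyrimidines whose C lies within 5 bases of the start.
Snhg8, higher, chr3:123508307-123508356, minus strand: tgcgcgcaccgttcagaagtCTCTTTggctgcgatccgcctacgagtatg
2410006H16Rik, lower, chr11:62602857-62602906, plus strand: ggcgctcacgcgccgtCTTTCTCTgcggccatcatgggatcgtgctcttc
Zfas1, lower, chr2:167062914-167062963, plus strand: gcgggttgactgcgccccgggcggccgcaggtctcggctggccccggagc
Snhg15, lower, chr11:6528731-6528780, minus strand: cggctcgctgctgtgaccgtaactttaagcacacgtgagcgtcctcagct
Snhg20, lower, chr11:117076763-117076812, plus strand: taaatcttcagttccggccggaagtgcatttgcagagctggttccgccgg
Gas5, not called, chr1:161035146-161035195, plus strand: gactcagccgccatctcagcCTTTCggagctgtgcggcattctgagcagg
Such a run was found at 1 or more starts of 4 of the 8 hosts with a sequence, Snhg8, 2410006H16Rik, Gas5 and 1110038B12Rik. Not printed are another start of Gas5 and the start of Snhg1, which lack the run, and both starts of 1110038B12Rik, which have it. It was found in 28 of 57 ribosomal protein genes (49.1%), in 14 of 48 members with a sequence (29.2%) and in 21.2% of 27025 genes. Only the transcribed strand was searched, since the run is defined from the start, and a gene counted if any of its starts matched. Hosts with the run were found among those called higher, called lower and not called, and a match is no evidence of how a gene is regulated.

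Of the list of 24 snoRNA host genes 10 were members, with 1 called higher, 4 lower (against 18% and 14.5% of all tested genes) and a median log2 fold change of -0.40. Of these 4, Snhg15 met the level rule only through control. 2410006H16Rik (ENSMUSG00000086841, chromosome 11, 62602877 to 62604807), which holds Snord49a, Snord49b and Snord65, ranked 3rd in level. It held 101, 101 and 68.2 FPKM in control and 38.4, 44.5 and 34.6 FPKM with CCL3. Control replicate 3 was again the lowest control library, above the highest CCL3 library, and the log2 fold change was -1.16 ± 0.19 SE (limma adjusted p = 0.00502). Zfas1 (chromosome 2, 167062934 to 167065862), the host of Snord12 and a regulator of cell growth in the mouse mammary gland, held 7.03, 7.74 and 4.36 FPKM against 2.17, 3.16 and 1.46 FPKM. All CCL3 libraries were below control (log2 fold change -1.18 ± 0.25 SE, limma adjusted p = 0.0112). Znfx1, an interferon-induced antiviral gene that overlaps it on the opposite strand and starts 81 bases away, was not called (24.96 ± 3.55 and 21.7 ± 5.73 FPKM, SD, n = 3 per group).

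Snhg15, the host of Snora9, held 3.19, 2.80 and 4.10 FPKM in control and 0.953, 0.514 and 1.52 FPKM with CCL3, and Snhg20 held 4.08, 4.62 and 4.61 FPKM against 1.59, 2.02 and 2.47 FPKM. Both were lower in every CCL3 library, with log2 fold changes of -1.15 ± 0.21 and -0.85 ± 0.15 SE (limma adjusted p = 0.00743 and 0.00662). Snhg8, the host of Snora24, went the other way, at 19.4, 19.4 and 18.7 FPKM in control and 23.8, 33.2 and 51.3 FPKM with CCL3. Its CCL3 libraries were widely spread, the log2 fold change was 0.81 ± 0.25 SE (limma adjusted p = 0.0391), and it was called in 9 of 20 other ways of processing the data.

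The other 5 hosts were not called. Gas5, a growth arrest RNA with many snoRNAs, held 6.90, 6.05 and 4.22 FPKM against 5.43, 7.96 and 8.95 FPKM (log2 fold change 0.33), with overlapping groups. Snhg1 held 1.62, 1.71 and 1.67 FPKM against 1.97, 2.27 and 4.43 FPKM (0.49), where CCL3 replicate 3 stood apart from the other CCL3 libraries. Snhg6 (-0.47), Epb41l4aos (-0.33) and 1110038B12Rik (0.08) completed the list. Ribosomal protein genes, of which 77 of 78 were tested, counted 27 higher and 17 lower with a median log2 fold change of 0.17. Hosts called higher and lower numbered 0 and 6 after rescaling to TPM, 0 and 5 by plain totals and 0 and 4 after quantile normalization, and those of ribosomal protein genes 13 and 36, 18 and 31, and 9 and 34. Of all 9218 tested genes 4493, 3850 and 2655 were called on these scales, with 507, 803 and 1366 of them higher. The shift under TPM and plain totals was thus not particular to hosts. Below the level rule, Snhg12 and Snhg5 were tested and not called (log2 fold changes -0.13 and -0.10), and Snhg17 stood at 1.19 ± 0.164 and 0.223 ± 0.0936 FPKM (SD, n = 3 per group), under the test filter.

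**Figure D4:**
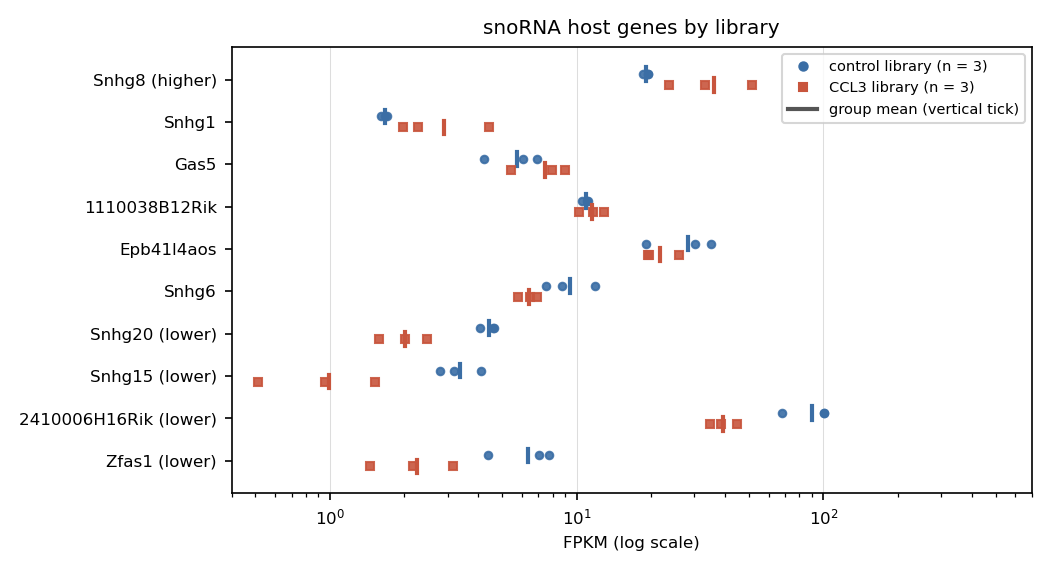
FPKM on a log axis in each control library (blue circles) and CCL3 library (red squares), with the group mean as a vertical tick, for the 10 snoRNA host genes among the members, ordered by log2 fold change. Squares lie to the left of circles for Snhg20, Snhg15, 2410006H16Rik and Zfas1, and by a small gap for Snhg6, which was not called, and to the right for Snhg8 and Snhg1.

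MicroRNA host genes are represented by 3 members of a list of 12. Their mature microRNAs are printed because these are well known in myeloid cells, miR-223 and miR-142 being abundant in blood cells, although the libraries measure the host RNA and not the microRNA. Sequences are from RefSeq, with the seed (bases 2 to 8) in capitals.
mmu-miR-142a-5p, in Mir142hg: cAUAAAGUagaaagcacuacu
mmu-miR-142a-3p, in Mir142hg: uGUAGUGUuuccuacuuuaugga
mmu-miR-223-3p, in F630028O10Rik: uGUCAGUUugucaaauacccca
mmu-miR-22-3p, in Mir22hg: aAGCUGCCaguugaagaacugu
No seed is shared among these 4. Mir22hg held 4.45, 2.91 and 1.80 FPKM in control and 1.57, 1.69 and 0.860 FPKM with CCL3. All CCL3 libraries were below control, by a narrow margin, and the log2 fold change of -0.74 ± 0.26 SE missed the threshold (limma adjusted p = 0.0609). Mir142hg held 10.02, 10.1 and 9.22 FPKM against 6.42, 9.52 and 5.89 FPKM (log2 fold change -0.40 ± 0.18 SE, not called), and F630028O10Rik 4.02, 4.82 and 2.22 FPKM against 0.674, 3.20 and 2.51 FPKM (-0.64 ± 0.36 SE, not called). CCL3 replicate 2 was the highest CCL3 library for all 3, within the control range for Mir142hg and F630028O10Rik. The median over the 3 was -0.64. By annotation 5 members hold a microRNA, the other 2 being Snhg20 with Mir6516 and Zswim6 with Gm22118, both called lower, and the median over the 5 was -0.74. Mir155hg was listed at 0 in every library.

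Among the 10 members highest in level, AI506816 and Gm17201 were the 2 not called. AI506816 held 15.0, 18.2 and 36.3 FPKM in control and 38.6, 26.9 and 41.5 FPKM with CCL3, where control replicate 3 lay within the CCL3 range (log2 fold change 0.68 ± 0.32 SE, limma adjusted p = 0.128). Gm17201, which shares 232 exon bases with Ankrd52 on the opposite strand, held 26.6, 20.8 and 26.5 FPKM against 30.7, 19.7 and 43.3 FPKM (0.27 ± 0.26 SE), with overlapping groups. Several uncalled members, named after their values were seen except Gm31597, lay near the threshold. Gm31597 held 4.48, 2.31 and 2.82 FPKM in control and 1.80, 0.113 and 1.47 FPKM with CCL3, with 1 fragment in CCL3 replicate 2 (log2 fold change -1.06 ± 0.35 SE, limma adjusted p = 0.0520). 1700007L15Rik held 2.02, 0.901 and 1.52 FPKM against 2.51, 2.45 and 4.86 FPKM, and Zbtb11os1 held 5.35, 4.54 and 3.99 FPKM against 5.89, 7.76 and 6.43 FPKM (limma adjusted p = 0.0522 and 0.0586). The groups did not overlap in these 3 genes, as in 6 higher and 11 lower uncalled members in all. Zfp652os held 4.21, 4.25 and 0.959 FPKM against 4.94, 5.53 and 9.63 FPKM, with the largest positive fold change not called (0.98 ± 0.40 SE, limma adjusted p = 0.0907) and with both replicates numbered 3 at the outer ends of the range. Bvht, known in mouse for cardiac lineage commitment, held 6.68, 4.69 and 5.62 FPKM against 5.12, 3.83 and 4.83 FPKM and overlapped (-0.25 ± 0.17 SE).

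Well-known nuclear and conserved long noncoding RNAs were not called. Malat1, which marks nuclear speckles, held 6.14, 6.25 and 4.28 FPKM in control and 3.90, 5.77 and 1.92 FPKM with CCL3 (log2 fold change -0.50 ± 0.30 SE, limma adjusted p = 0.220), with overlapping groups. It was the 1 member of 9 nuclear RNAs listed; Neat1, the scaffold of paraspeckles, lay below the level rule at 1.503 ± 0.591 and 0.747 ± 0.301 FPKM (SD, n = 3 per group; log2 fold change -0.50, not called). 2900097C17Rik, the mouse gene of the Pumilio-binding RNA Norad, held 14.4, 11.7 and 9.09 FPKM against 7.13, 9.87 and 6.89 FPKM (-0.50 ± 0.20 SE, limma adjusted p = 0.0874). Of 14 conserved long noncoding RNAs 4 were members, with 0 called and a median of -0.09, and of 9 p53 and genome stability RNAs 2 were members, with 0 called and a median of -0.09. Firre, an X-linked nuclear RNA, was too low to be tested, with control libraries at 1.09, 1.14 and 0.749 FPKM and CCL3 libraries at 0.165, 0.0212 and 0.00836 FPKM.

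The list of 14 macrophage and immune long noncoding RNAs held 3 members, AW112010, F630028O10Rik and Malat1, with 0 called and a median of -0.50. AW112010, which encodes a small protein in inflamed mouse macrophages through a start codon other than AUG, held 3.50, 3.89 and 1.88 FPKM in control and 2.56, 4.16 and 2.42 FPKM with CCL3. The groups overlapped, and the log2 fold change was -0.00 ± 0.25 SE. Hotairm1, a myeloid RNA of the Hoxa cluster, held 2.63, 2.41 and 3.61 FPKM against 1.99, 2.10 and 1.28 FPKM (-0.48 ± 0.18 SE, limma adjusted p = 0.0781), without overlap. Among 9 imprinted RNAs the 1 member, Peg13, was at 6.45 ± 1.602 and 5.91 ± 0.837 FPKM (SD, n = 3 per group; log2 fold change -0.09, not called). The X inactivation list of 4 and the list of 8 short noncoding RNA genes had no member; in the latter Rn7sk, a regulator of transcription elongation, was called higher from 3.01 ± 0.614 to 6.12 ± 1.95 FPKM (SD, n = 3 per group; log2 fold change 0.81 ± 0.22 SE, limma adjusted p = 0.0257).

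Calls are given next by genomic arrangement and type, to be read against 18% higher and 14.5% lower over all tested genes, and no test was made between the classes. In the deposited coordinates 31 members overlap a protein-coding gene on the opposite strand (4 called higher, 4 lower), 4 overlap one on the same strand (0 and 0), 27 start within 1000 bases of an opposite-strand protein-coding start (5 and 3), and 36 do neither (7 and 9). Antisense genes counted 4 higher and 4 lower of 28, lincRNA genes 5 and 5 of 30, processed_transcript genes 3 and 6 of 19, bidirectional_promoter_lncRNA genes 2 and 0 of 7, and sense_intronic genes 0 and 0 of 2. Single-exon members counted 5 and 3 of 20. The labels do not state whether counting used strand, so for the 25 members that share exon bases with an opposite-strand gene the reads of both cannot be told apart.

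There were 57 pairs of a member with a protein-coding partner, of which 39 had a tested partner. Both genes were called higher in 2 pairs and both lower in 0, the member alone was called in 10, the partner alone in 7, and neither in 19. In the 1 remaining pair the directions were opposite. Gm15417 held 4.04, 4.98 and 4.40 FPKM in control and 3.47, 3.00 and 2.31 FPKM with CCL3 (log2 fold change -0.49 ± 0.16 SE, limma adjusted p = 0.0491). Zbtb7b, the gene of the transcription factor ThPOK, with which it shares 116 exon bases, held 44.8, 48.4 and 53.1 FPKM against 78.9, 84.2 and 97.9 FPKM (0.82 ± 0.14 SE, limma adjusted p = 0.00585). The groups did not overlap in either gene.

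A pair called higher together was 1810021B22Rik with Trabd. 1810021B22Rik held 2.42, 1.75 and 2.19 FPKM in control and 3.10, 3.38 and 5.77 FPKM with CCL3, and Trabd held 15.3, 15.7 and 20.4 FPKM against 26.0, 29.2 and 39.4 FPKM. CCL3 replicate 3 was highest for both, and they share 88 exon bases. Partners called while the member was not were Abhd17a, a depalmitoylase gene (log2 fold change 1.58, with Gm29093 at -0.35), Pik3r2, a regulatory subunit of phosphoinositide 3-kinase (0.74, with 2010320M18Rik at -0.26), Tnfsf12, the gene of the cytokine TWEAK (0.72, with Tnfsf13os at 0.61), and Trappc9 (0.68, with Peg13 at -0.09). Lower partners included Fam120a (-0.52, with Fam120aos at -0.15) and Kbtbd4 (-0.45, with Ptpmt1 at -0.15). Gm13012, lower by itself, lies within Ece1, the endothelin-converting enzyme gene, which had a log2 fold change of -0.55 and was not called (limma adjusted p = 0.0533).

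**Figure D5:**
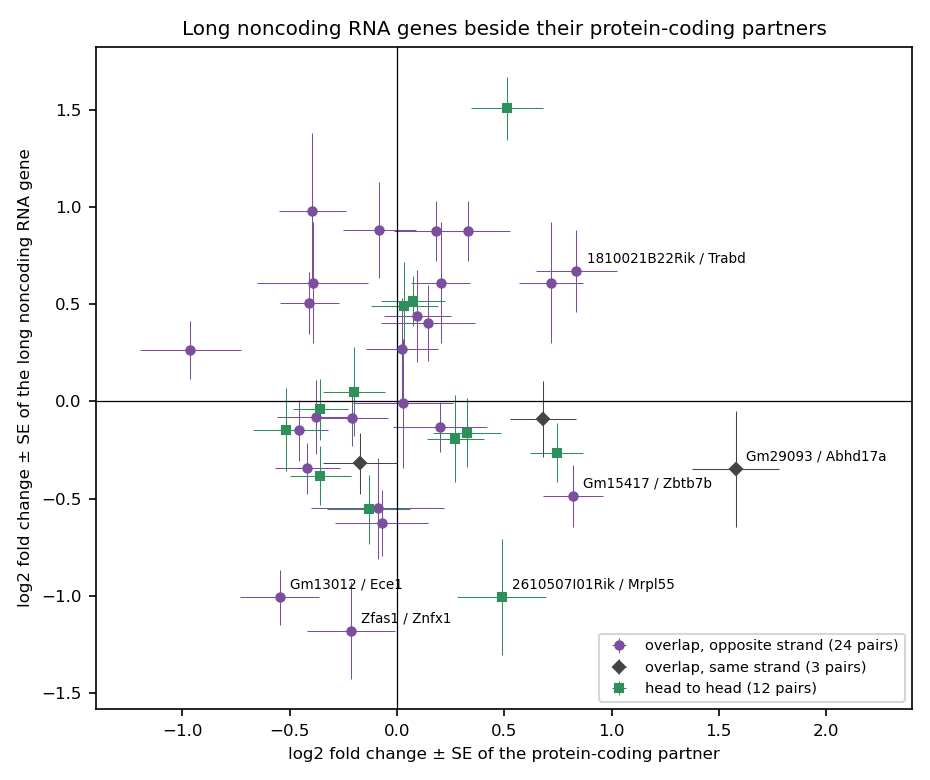
Log2 fold change with its standard error of each long noncoding RNA gene (vertical) against that of its protein-coding partner (horizontal) for the 39 pairs with a tested partner; purple circles overlap on opposite strands (24 pairs), grey diamonds on the same strand (3) and green squares lie head to head (12). 1810021B22Rik with Trabd is at the upper right, Gm15417 with Zbtb7b at the lower right.

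As a share of all recovered fragments, members took 0.163%, 0.169% and 0.174% in control and 0.167%, 0.194% and 0.191% with CCL3. The groups overlapped, and the difference of 0.0156 percentage points had an exact two-sided permutation p of 0.3, with 0.1 the smallest possible. Without the 12 genes with a RefSeq protein, Gm10076 and Gm26917, control libraries gave 0.0912%, 0.0945% and 0.0912% and CCL3 libraries 0.0681%, 0.0733% and 0.0667%. The difference was -0.0230 percentage points, given as a description, since those 14 genes were set apart after the values had been seen. Over all 9677 genes of the 7 types the share was 0.257% ± 0.00585 in control and 0.232% ± 0.0159 with CCL3 (SD, n = 3 per group; difference -0.0251, exact two-sided permutation p = 0.1). Among the 75 such genes between 1 and 2 FPKM, 2 were called higher and 16 lower, with a median log2 fold change of -0.16. Over all tested genes 18% were called higher and 14.5% lower. Genes this low could pass the test filter through 1 group only, so nothing is read from these counts.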

How the data were processed

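A single FPKM table (fragments divided by gene length and a library-wide scale) deposited by the authors covered 3 control and 3 CCL3 libraries, with gene length, position, strand and type. Per the submitters' processing notes, coordinates are on mm10. RNA had been column-purified and libraries built with a SMARTer kit, per the labels' protocols. Aligner, counting tool, use of strand, treatment of multiply matching reads, annotation release and batches were not given in the sources used here. Gene lengths and the scaling behind the table therefore enter every level.

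FPKM multiplied by gene length came in whole steps for 100% of values (tolerance 0.02), which gave fragments per gene. The deposited divisor differed from the plain total, and the total was 0.851 to 0.895 of it in control and 1.05 to 1.20 in CCL3 libraries; the median ratio to the geometric mean of the libraries was 1 in every library. The 9218 genes averaging 1 FPKM or more were fitted together on log2(FPKM + 1) in limma 3.58.1 (R 4.3.3) with a variance trend, two-sided, with Benjamini-Hochberg adjustment over all of them and a threshold of 0.05. This scale understates changes of low genes. Levels are means ± SD and fold changes carry model standard errors. On simulated fragments 4-fold changes were recovered in 100% of genes, 2-fold in 88.1% and 1.5-fold in 26.9%, and 7.14% of calls were on unchanged genes (9213 genes tested). The changed genes were drawn from genes of all types at 2 FPKM or more, with a common spread (dispersion 0.0229). These rates are therefore not those of the members, whose median standard error was 0.203 against 0.170 over all tested genes.

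Coding status, partners, exons and small RNAs came from GENCODE M21 and RefSeq (GRCm38.p6), copies from blastn at 95% identity or more, and sequences from RefSeq; 48 of 86 members had a start sequence. Deposited types were kept where the annotations differ. Named genes were the 10 largest rises and falls among calls without overlap, the 10 highest in level, members of 11 gene lists, genes beside the level threshold and their partners. Members and lists were chosen with earlier results of these data known. The labels tie replicate numbers to no shared source, so libraries were not paired. Other scalings, filters, corrections, left-out libraries and voom on recovered fragments were tried. Some partner genes are not reported here.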

Additional observations from a re-analysis of the deposited data

How the results depend on the processing

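With FPKM as deposited 14 members were called higher and 15 lower. TPM scaling gave 2 and 43 with a median log2 fold change of -0.61, and plain totals 5 and 33 with -0.40, both moving the median of all tested genes (-0.48 and -0.28) and the share of all calls that were higher (55.4% to 11.3% and 20.9%). Median-ratio scaling equals the deposited scale. Without a filter on low values the counts were 8 and 9, with length correction 7 and 23, with GC correction 8 and 19, and with both 7 and 19. The cause of these shifts was not tested. With 1 library left out higher calls ranged from 6 to 15, lower calls from 9 to 17 and the median from -0.18 to -0.08. Calls over all tested genes ranged from 1128 to 3142 in these fits, against 2990 with every library. Quantile normalization (12 and 10), a pseudocount of 0.1 (14 and 14), a filter at 2 FPKM (14 and 15), no variance trend (14 and 15) and leaving out both replicates numbered 3 (12 and 13) kept counts within 1.5 times.

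The log2 fold change of Gm30025 turned to -0.22 with GC correction and -0.33 with GC and length correction, and the log2 fold change of Sp3os, not called (-0.01), was 0.57 without both replicates numbered 3; the cause was not tested. With the replicate number as a block 17 members were higher and 18 lower, all 29 calls among them. Calls over all tested genes went from 2990 to 3897 with this block. Deviations of same-numbered libraries correlated at -0.06, 0.39 and 0.50, the last being the highest of all pairs. Control replicate 1 correlated best with CCL3 replicate 2 (0.41). Whether same-numbered libraries share a source or batch cannot be told from these values. Alternatives chosen after seeing the data were voom on recovered fragments (10 and 14, 24 of 29 calls kept) and leaving out the 12 genes with a RefSeq protein, Gm10076 and Gm26917 (7 and 13). The members' share of fragments differed by 0.0156 percentage points, by -0.0249 as a share of summed FPKM, by -0.0251 over all genes of these types and by -0.0230 without those 14 genes. A planned test on recovered fragments with a negative binomial model was not run, and voom was run on them instead. For the 18 members with under 20 fragments in at least 1 library, counting error limits what could be detected.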
